A study of Mus musculus with 12 samples.

Results

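Transcripts of matrix metalloproteinases (MMPs) and of their tissue inhibitors (TIMPs) were followed in the auditory nerve of the mouse over the first weeks after birth. The set was given by name as 10 genes: Mmp2, Mmp11, Mmp13, Mmp14, Mmp15, Mmp16, Timp1, Timp2, Timp3 and Timp4. Of these, 9 were measured by 24 probe sets that carry a single gene symbol, among 18193 genes measured that way in all. Mmp15 had no such probe set and was not analysed here. Each gene was represented by its brightest probe set over the 12 arrays, and its other probe sets served as a check.

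The tissue came from CBA/CaJ mice, an inbred strain, of both sexes, and no group carried an allele, a treatment or an injury. There were 6 groups of 2 mice each, taken on the day of birth (P0) and at P3, P7, P10, P14 and P21. The bony shell, the lateral wall and most of the sensory epithelium of the cochlea were dissected away, and the left and right modiolus of a mouse, the core that holds the auditory nerve, made up 1 sample. Such a sample is enriched for nerve but keeps other tissue of the cochlear core. All values are log2 signals of Affymetrix mouse arrays after the authors' robust multi-array average (RMA), so that a difference of 1 is a doubling of the signal. In whole tissue, fewer cells of a type and less RNA per cell cannot be told apart.

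MMPs are zinc-dependent endopeptidases that cut the proteins of the extracellular matrix. Most are made as inactive precursors, some are anchored in the cell membrane, and the TIMPs block the active enzymes by binding their catalytic site. In peripheral nerve these enzymes are known for remodelling the basal lamina and the endoneurial matrix, and in growing bone for removing cartilage and mineral-associated collagen.

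The promoters of the 4 genes that were higher at some stage (Mmp13, Mmp14, Timp1 and Timp4, values below) are shown because these genes differed in when they were high. RefSeq gave a promoter for 8 of the 10 genes. Each printed window holds 250 bases before and 50 after the annotated start on the strand of the gene, in build GRCm38.p6. The windows are chr9:7272264-7272563 on the plus strand for Mmp13, chr14:54431348-54431647 on the plus strand for Mmp14, chrX:20869916-20870215 on the plus strand for Timp1 and chr6:115252156-115252455 on the minus strand for Timp4. Capitals mark matches, on either strand, to 4 motifs that were chosen with the sequences in view: TGANTCA (the AP-1 motif), TGTGGT (the RUNX motif), TATAAA (the TATA box) and GGGCGG (the GC box).
Mmp13: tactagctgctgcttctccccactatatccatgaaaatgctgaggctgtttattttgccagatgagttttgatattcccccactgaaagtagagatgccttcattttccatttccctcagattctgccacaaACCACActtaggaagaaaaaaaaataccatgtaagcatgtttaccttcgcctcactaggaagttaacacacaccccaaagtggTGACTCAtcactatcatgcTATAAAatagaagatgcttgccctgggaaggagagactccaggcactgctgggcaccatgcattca
Mmp14: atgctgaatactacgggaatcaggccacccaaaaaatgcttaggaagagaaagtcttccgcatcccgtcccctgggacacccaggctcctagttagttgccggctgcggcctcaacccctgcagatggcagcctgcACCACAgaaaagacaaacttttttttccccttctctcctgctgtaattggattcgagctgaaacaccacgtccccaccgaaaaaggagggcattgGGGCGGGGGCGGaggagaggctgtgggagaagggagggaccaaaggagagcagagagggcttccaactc
Timp1: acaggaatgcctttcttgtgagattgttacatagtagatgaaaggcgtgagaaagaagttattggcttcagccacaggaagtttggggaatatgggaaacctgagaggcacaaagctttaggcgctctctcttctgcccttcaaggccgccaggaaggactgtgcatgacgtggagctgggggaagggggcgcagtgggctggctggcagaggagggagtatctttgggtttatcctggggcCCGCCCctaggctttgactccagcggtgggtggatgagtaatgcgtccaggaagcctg
Timp4: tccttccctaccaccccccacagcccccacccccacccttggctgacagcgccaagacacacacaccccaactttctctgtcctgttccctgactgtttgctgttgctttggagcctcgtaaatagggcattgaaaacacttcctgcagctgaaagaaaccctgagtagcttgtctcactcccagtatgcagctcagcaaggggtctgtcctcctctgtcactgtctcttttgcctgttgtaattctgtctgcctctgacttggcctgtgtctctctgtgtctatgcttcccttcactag
The Mmp13 window held the AP-1 letters once, at positions -35 to -29 from the start, which match on both strands. It also held the TATA letters at -16 to -11 and the RUNX letters on the opposite strand at -118 to -113. Whether any of these letters act at this start was not tested. Of the 8 promoters, AP-1 letters were in 1, against 7.81% of all 32851 promoters in the table, and TATA letters were in 1, against 13.6% of all. RUNX letters were in 2, Mmp13 and Mmp14, against 16.8% of all. The GC box was in 6, Mmp11, Mmp14, Mmp15, Timp1, Timp2 and Timp3, against 35.7% of all. In the Mmp14 window its 2 matches lay end to end, at -19 to -14 and -13 to -8. The Timp4 window held none of these letters.

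Arrays carry no read depth, and precision rests on 2 arrays at each stage. Replicate arrays correlated at 0.991 to 0.996 over all probe sets. Markers of Schwann cells and myelin, neurons and fibroblasts were measured at every stage, with mean log2 values over each list between 9.31 and 12.7, and none of these markers lay in the lowest 25% of values at any stage. The P21 arrays stood apart in RNA balance. The 3' minus 5' difference of the Actb control probe sets was 2.32 and 2.03 at P21, against 0.81 to 1.41 on the 10 other arrays. For Gapdh it was 1.65 and 1.37 at P21, against 0.18 to 0.68. Both P21 arrays had the highest balance, so stage and balance cannot be told apart at P21. The changes of the main probe sets at P21 against P0 are therefore also given with the Actb balance as a covariate, after the genes have been described.

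Among the 9 measured genes of the set, falling levels were seen mostly in MMPs. The one gene whose stage mean rose at every step was a TIMP. At P21, 4 of the 5 measured MMPs were lower than at P0 (Mmp2, Mmp11, Mmp14 and Mmp16), and 1 of the 4 TIMPs was higher (Timp4). Mmp13 and Timp1, an MMP and a TIMP, both rose after birth, were highest at P7 and P10, and neither was called at P21 against P0. Timp2 and Timp3 passed no comparison. This does not hold for MMPs at large: of 13 other measured MMPs, 1 was higher and 1 lower at P21 than at P0. Whether the MMPs as a class differed from the TIMPs was not tested. The members were a given list, chosen with earlier results of these data known.

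**Figure D1:**
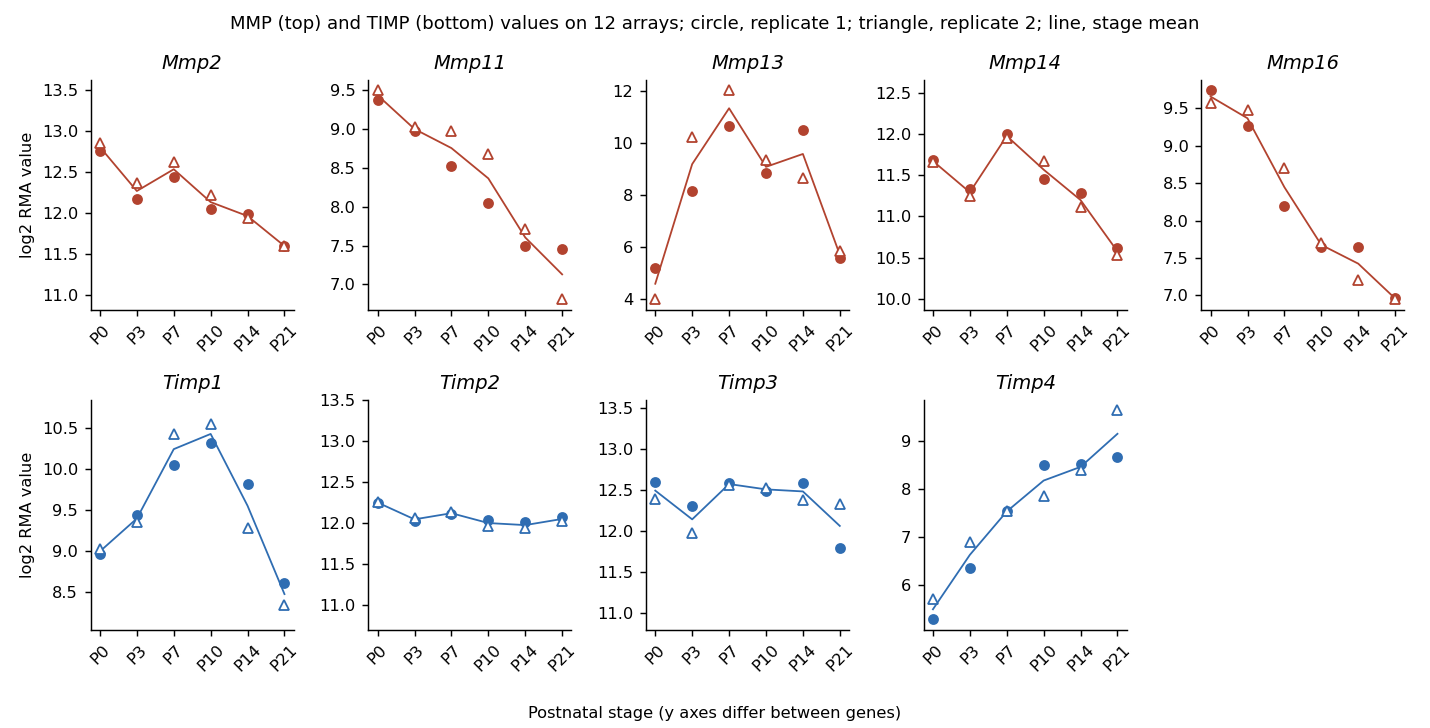
The log2 RMA value (y axis, a scale of its own for each gene) on the 12 arrays against postnatal stage (x axis), with MMPs above and TIMPs below, circles for replicate 1, triangles for replicate 2 and lines through the stage means. Mmp13 peaks at P7 and Timp1 at P10, Timp4 is highest and Mmp16 lowest at P21, and Timp2 spans 0.275 log2 units between stage means.

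A gene was called higher or lower at an adjusted p under 0.05 and a fold over 1.5 in limma's fit over all 12 arrays, with Benjamini-Hochberg adjustment over 45037 probe sets. The same call rule was applied to all 18193 genes. The comparisons with P0 all share the same 2 P0 arrays. At P3 against P0, 1 of the 9 genes was higher and 0 lower, where 1.61% of all genes were higher and 3.78% lower. At P7 against P0, 3 were higher and 1 lower, where 7.54% of genes were higher and 7.44% lower. At P10 against P0, 3 were higher and 3 lower, where 11% of genes were higher and 13.5% lower. At P14 against P0, 2 were higher and 3 lower, where 12.6% of genes were higher and 14.8% lower. At P21 against P0, 1 was higher and 4 lower, where 15.3% of genes were higher and 16.9% lower. Over the 6 stages together, limma's F-test called 7 of the 9 genes, all but Timp2 and Timp3, where 45.1% of genes were called. The median log2 change of the 9 genes at P21 against P0 was -0.52, and that of all genes was 0.03.

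**Figure D2:**
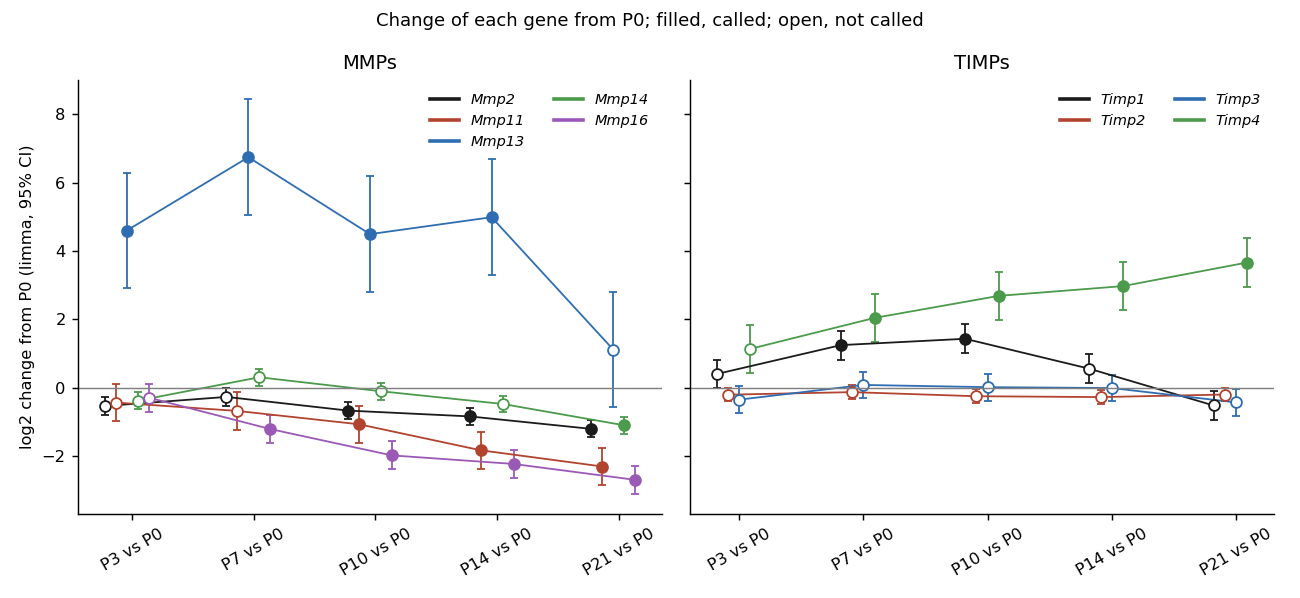
The log2 change from P0 (y axis) of each MMP (left) and TIMP (right) at P3, P7, P10, P14 and P21 (x axis), with 95% confidence intervals from limma; filled points were called and open points were not. Mmp13 has filled points above 0 from P3 to P14 and Timp4 from P7 to P21, Mmp16 has filled points below 0 from P7 on, and Timp2 and Timp3 have open points throughout.

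Mmp13, or collagenase 3, cleaves fibrillar collagens, type II collagen of cartilage among them, and is known from hypertrophic cartilage and osteoblasts. Its log2 values were 5.18 and 3.99 at P0, 8.15 and 10.21 at P3, 10.63 and 12.02 at P7, 8.82 and 9.33 at P10, 10.5 and 8.64 at P14, and 5.56 and 5.84 at P21. Every array from P3 to P14 was above every array of P0 and P21, and the 2 mice of P0, of P3, of P7 and of P14 were over 1 log2 unit apart. The second P0 array, at 3.99, lay in the lowest 25% of the values on its array, and the P0 mean of 4.585 lay below the bound of that range. Mmp13 was 24.2-fold higher at P3 than at P0 (log2 change 4.595, 95% CI 2.91 to 6.28, adjusted p = 0.00922). At P7 it was 107-fold higher than at P0 (log2 change 6.74, CI 5.05 to 8.43, adjusted p = 0.000313). At P10 it was 22.5-fold higher than at P0 (adjusted p = 0.00155) and at P14 31.7-fold (adjusted p = 0.000722). With the low P0 array raised to the 25% bound of its array, these become at least 16.3-fold at P3, 72.3-fold at P7, 15.2-fold at P10 and 21.4-fold at P14. At P21 its log2 change from P0 was 1.12 (CI -0.57 to 2.80, adjusted p = 0.273), which was not called.

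The size of the Mmp13 change rested on single arrays, though not its direction. The P3 value was 11.8-fold without P3 replicate 2 and 49.4-fold without P3 replicate 1. The call at P3 was lost without P0 replicate 2 (log2 change 4, adjusted p = 0.0786) and when the 4 arrays of P3 and P0 were fitted alone (adjusted p = 0.0657). The P7 value ran from 66.0-fold without P7 replicate 2 to 173-fold without P7 replicate 1, the P10 value from 14.9-fold without P0 replicate 2 to 33.9-fold without P0 replicate 1, and the P14 value from 16.6-fold without P14 replicate 1 to 60.3-fold without P14 replicate 2. The calls at P7, P10 and P14 remained in each of these fits.

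Marker lists of bone cells and of macrophages were higher at P7 than at P0, as Mmp13 was. So were those of other cells: 4 of 5 Schwann cell and myelin markers, 5 of 8 neuron markers and 4 of 6 oligodendrocyte markers were called higher at P7. The 8 osteoclast markers, Acp5, Ctsk and Mmp9 among them, had a summed signal of 12019 and 19610 at P7, against 2133 and 1931 at P0, and all 8 were called higher. Their sum was 7950 and 2620 on the P14 arrays, and Mmp13 too was higher on the first of these. At P21 it was 1036 and 1119, below P0. The 6 measured markers of osteoblasts and hypertrophic cartilage had a summed signal of 746 and 973 at P0, 4165 and 4424 at P3, 34095 and 38148 at P7, 39064 and 39898 at P10, 33461 and 34698 at P14, and 22551 and 26499 at P21. This sum was carried by Ibsp, Dmp1 and Phex of bone. Col10a1, the collagen of hypertrophic cartilage in that list, had means of 8.70 at P3 and 5.11 at P0 (12.0-fold, adjusted p = 0.000913). It was 7.97-fold lower at P7 than at P3 (adjusted p = 0.000549) and was not called at P7, P10, P14 or P21 against P0. The 8 macrophage markers had a summed signal of 9556 and 12021 at P7, against 5147 and 4728 at P0, with 7 of 8 called higher. Their sum was 12324 and 7894 at P14, split between the mice the same way as Mmp13, and 6678 and 7150 at P21. That split was not particular to these lists, since the sum of the 7 neutrophil markers was 52313 and 11692 on the P14 arrays. In the osteoclast list 2 of 8 markers lay in the lowest 25% at P0, and in the osteoblast list none of 6 did. The part of these cells in the Mmp13 and Timp1 changes was not tested.

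**Figure D3:**
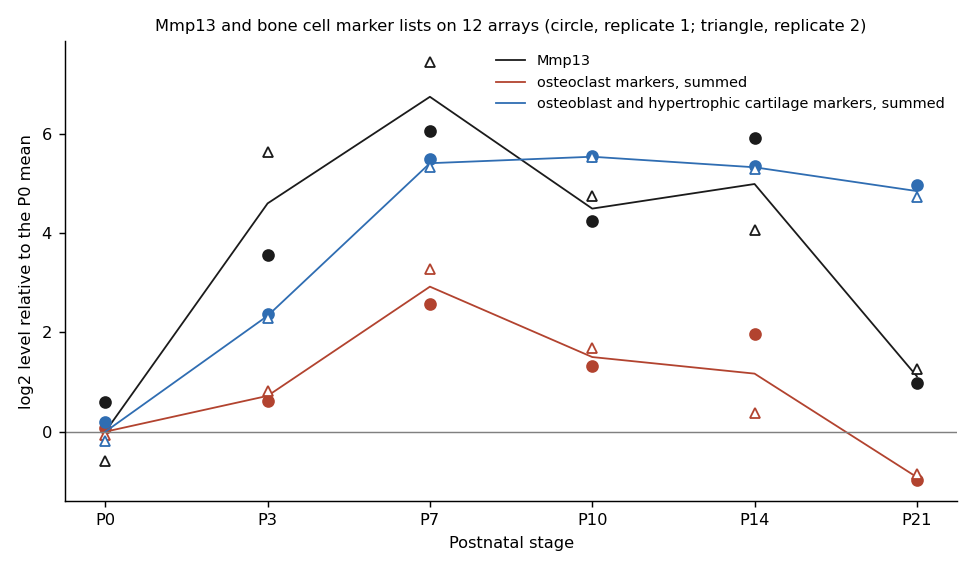
The log2 level relative to the P0 mean (y axis) of Mmp13 and of the summed signals of the 8 osteoclast markers and the 6 measured osteoblast and hypertrophic cartilage markers on each array against stage (x axis); circles are replicate 1, triangles replicate 2 and lines stage means. Mmp13 and the osteoclast sum are highest at P7 and split between the mice of P14, and the osteoblast sum stays high at P21.

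Mmp2, or gelatinase A, degrades denatured collagen and basement membrane collagen. Its log2 values were 12.75 and 12.85 at P0, 12.17 and 12.36 at P3, 12.44 and 12.62 at P7, 12.04 and 12.22 at P10, 11.98 and 11.94 at P14, and 11.60 and 11.59 at P21. Both P0 arrays were above all others and both P21 arrays below all others. Mmp2 was 1.59-fold lower at P10 than at P0 (adjusted p = 0.00154), 1.79-fold lower at P14 (adjusted p = 0.000352) and 2.31-fold lower at P21 (log2 change -1.21, CI -1.46 to -0.95, adjusted p = 2.64e-05). At P3 it was 1.45-fold below P0 (adjusted p = 0.0250), under the fold limit. The call at P10 fell under the fold limit without P10 replicate 1 (log2 change -0.58), and a call at P3 was gained without P3 replicate 2 (log2 change -0.63, adjusted p = 0.0390).

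Mmp14 and Mmp16 are membrane-type MMPs, anchored at the cell surface, and both can cut the precursor of Mmp2 into its active form. Mmp14 had log2 values of 11.69 and 11.66 at P0, 11.34 and 11.25 at P3, 12.00 and 11.96 at P7, 11.46 and 11.68 at P10, 11.29 and 11.11 at P14, and 10.62 and 10.53 at P21. Its P7 arrays were the highest and its P21 arrays the lowest, and neither pair overlapped any other stage. Mmp14 was 1.61-fold higher at P7 than at P3 (log2 change 0.69, CI 0.44 to 0.93, adjusted p = 0.00300). It was 2.14-fold lower at P21 than at P0 (log2 change -1.10, CI -1.35 to -0.85, adjusted p = 3.93e-05). At P7 its log2 change from P0 was 0.31 (CI 0.06 to 0.55, adjusted p = 0.0924), which was not called.

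Mmp16 fell earlier and further than Mmp14. Its log2 values were 9.74 and 9.57 at P0, 9.26 and 9.47 at P3, 8.19 and 8.70 at P7, 7.65 and 7.70 at P10, 7.65 and 7.20 at P14, and 6.97 and 6.95 at P21. Each stage's pair lay below the pair of the stage before, except that P14 and P10 shared the value 7.65. Mmp16 was 2.31-fold lower at P7 than at P0 (adjusted p = 0.00177), 3.94-fold lower at P10 (adjusted p = 4.99e-05), 4.69-fold lower at P14 (adjusted p = 1.88e-05) and 6.48-fold lower at P21 (log2 change -2.70, CI -3.11 to -2.28, adjusted p = 4.34e-06). It was also 1.89-fold lower at P7 than at P3 (adjusted p = 0.00886). That last call was lost without P3 replicate 2 (log2 change -0.82, adjusted p = 0.0572), without P7 replicate 1 (log2 change -0.67, adjusted p = 0.0799), with the 4 arrays fitted alone (adjusted p = 0.0526) and with the mean of all its probe sets (adjusted p = 0.213). That Mmp16 and Mmp14 changed by different amounts was not tested.

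Mmp11, or stromelysin 3, is activated by furin within the cell, unlike most secreted MMPs. Its log2 values were 9.37 and 9.50 at P0, 8.98 and 9.02 at P3, 8.53 and 8.98 at P7, 8.05 and 8.68 at P10, 7.5 and 7.71 at P14, and 7.45 and 6.81 at P21. The P0 arrays were above all others, and the P14 and P21 arrays were below all earlier ones. Mmp11 was 2.10-fold lower at P10 than at P0 (adjusted p = 0.00842), 3.56-fold lower at P14 (adjusted p = 0.000351) and 4.94-fold lower at P21 (log2 change -2.31, CI -2.85 to -1.76, adjusted p = 5.81e-05). The call at P10 was lost without P0 replicate 2 (log2 change -1.01, adjusted p = 0.0566) and without P10 replicate 1 (log2 change -0.76, adjusted p = 0.0842). At P7 its change from P0 was 1.60-fold downward with an adjusted p of 0.0932, and it passed only with the 4 arrays of P7 and P0 fitted alone (adjusted p = 0.0471).

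Timp1, a secreted inhibitor that acts poorly on membrane-type MMPs, rose and fell. Its log2 values were 8.96 and 9.03 at P0, 9.44 and 9.35 at P3, 10.05 and 10.43 at P7, 10.31 and 10.54 at P10, 9.82 and 9.28 at P14, and 8.61 and 8.34 at P21. The P7 and P10 arrays overlapped each other and were above all arrays of the other stages, and both P21 arrays were below P0. Timp1 was 2.37-fold higher at P7 than at P0 (log2 change 1.25, CI 0.82 to 1.67, adjusted p = 0.00175) and 2.69-fold higher at P10 (log2 change 1.43, CI 1.01 to 1.85, adjusted p = 0.000384). At P14 it was 1.47-fold above P0 (adjusted p = 0.0474), under the fold limit. Without P14 replicate 2, the lower of that pair, it passed (log2 change 0.83, adjusted p = 0.0130). At P21 its log2 change from P0 was -0.52 (CI -0.94 to -0.10, adjusted p = 0.0501). The rise at P7 against P3 was 1.80-fold (adjusted p = 0.0148), and this call was lost without P3 replicate 2 (adjusted p = 0.0724), without P7 replicate 2 (adjusted p = 0.0917) and with the Actb balance as a covariate (adjusted p = 0.0978).

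Timp4, an inhibitor with a narrow tissue range that is best known from heart and brain, had a stage mean that rose at every step. No step between neighbouring stages was called in the fit of all arrays. Its log2 values were 5.29 and 5.71 at P0, 6.37 and 6.90 at P3, 7.54 and 7.54 at P7, 8.51 and 7.86 at P10, 8.54 and 8.40 at P14, and 8.67 and 9.65 at P21. Both P0 arrays were below all others and both P21 arrays above all others, while P10 and P14 overlapped. Timp4 was 4.11-fold higher at P7 than at P0 (adjusted p = 0.00195), 6.43-fold at P10 (adjusted p = 0.000195), 7.84-fold at P14 (adjusted p = 8.62e-05) and 12.6-fold at P21 (log2 change 3.66, CI 2.96 to 4.36, adjusted p = 1.62e-05). At P3 its log2 change from P0 was 1.14 (CI 0.43 to 1.84, adjusted p = 0.0700). This passed when either P21 array was left out of the fit (adjusted p = 0.0259 each), as did P7 against P3 (log2 change 0.91, adjusted p = 0.0315 each).

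Markers of glia were also higher at P21 than at P0. The summed signal of the 6 astrocyte markers was 23140 and 23922 at P21, against 10359 and 11723 at P0, with 3 of the 6 called higher. That of the 5 measured Schwann cell and myelin markers was 25834 and 28179 at P21, against 7816 and 8854 at P0, with 4 called higher. That of the 6 oligodendrocyte markers was 23028 and 25434 at P21, against 3419 and 4012 at P0, with all 6 called higher. At P7 the Schwann cell sum was 27990 and 29034, the astrocyte sum 15218 and 16573 and the oligodendrocyte sum 11673 and 13962. The neuron sum was 50463 and 67802 at P21, against 18429 and 16514 at P0, with 6 of 8 markers called higher and 1, Syt1, lower. At P3 the neuron sum was 12546 and 14340, below P0. The part of these cells in the Timp4 rise was not tested.

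Timp2, which inhibits MMPs and also links the precursor of Mmp2 to Mmp14 at the cell surface, had log2 values of 12.24 and 12.26 at P0, 12.03 and 12.06 at P3, 12.11 and 12.13 at P7, 12.04 and 11.96 at P10, 12.01 and 11.94 at P14, and 12.07 and 12.03 at P21. On this probe set all 10 later arrays were below both P0 arrays. On the next brightest one the P3, P7 and P10 arrays, at 11.49 to 11.79, were above both P0 arrays, at 11.31 and 11.38, with a log2 change of 0.40 at P3 (adjusted p = 0.0606). The stage means of the main Timp2 probe set spanned 1.21-fold, and its largest log2 change, -0.28 at P14 against P0 (CI -0.47 to -0.08, adjusted p = 0.0380), was under the fold limit. Timp3, which binds to the matrix and also inhibits some ADAM and ADAMTS proteases, had log2 values of 12.60 and 12.39 at P0, 12.31 and 11.98 at P3, 12.59 and 12.56 at P7, 12.49 and 12.53 at P10, 12.59 and 12.38 at P14, and 11.80 and 12.33 at P21. Its P21 arrays were below both P0 arrays and overlapped those of P3. Its log2 change at P21 against P0 was -0.43 (CI -0.82 to -0.04, adjusted p = 0.0771). It passed without P21 replicate 2 (log2 change -0.70, adjusted p = 0.0101), as did its F-test (adjusted p = 0.0214), and with the mean of its 4 probe sets (log2 change -0.68, adjusted p = 0.0345). With the Actb balance as a covariate the direction turned (log2 change 1.05, adjusted p = 0.2498).

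All 5 calls at P21 against P0 were lost when the Actb balance was a covariate, where the calls over all genes numbered 212 higher and 155 lower, against 2783 higher and 3075 lower without it. Each of the 5 genes kept its direction. The fit takes the covariate's slope from differences between replicates of a stage, so a kept direction cannot separate balance from stage at P21. With the covariate the log2 change was -1.45 for Mmp2 (adjusted p = 0.118), -3.73 for Mmp11 (adjusted p = 0.0547), -0.80 for Mmp14 (adjusted p = 0.366), -2.47 for Mmp16 (adjusted p = 0.111) and 4.50 for Timp4 (adjusted p = 0.0886). Mmp2, Mmp11, Mmp16 and Timp4 had been called in the same direction at P14, where the Actb balance was 1.08 and 1.41, against 0.92 and 0.95 at P0. Those calls at P14 remained with the covariate. Of the 4 genes not called at P21, the covariate gave log2 changes of 1.62 for Mmp13 (adjusted p = 0.841), -0.11 for Timp1 (adjusted p = 0.961), -0.20 for Timp2 (adjusted p = 0.832) and, with the sign turned, 1.05 for Timp3. Mmp14 was not called at P14 (1.39-fold lower than at P0, adjusted p = 0.00786).

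Between neighbouring stages after P3, calls among the 9 genes were made at P7 against P3 and at P21 against P14 only. At P7 against P3, 2 of the 9 genes were higher (Mmp14 and Timp1) and 1 lower (Mmp16), where 7.81% of all genes were higher and 5.36% lower. At P10 against P7, 0 of the 9 passed in limma's fit, where 0.176% of genes were higher and 0.209% lower. There 4 genes had an unadjusted p under 0.05, as did 14.4% of all genes, and they were Mmp2, Mmp13, Mmp14 and Mmp16, each lower at P10. At P14 against P10, 0 of the 9 passed, where 0% of genes were higher and 0% lower. There 3 genes had an unadjusted p under 0.05, as did 9.34% of all genes, and they were Mmp11, Mmp14 and Timp1, each lower at P14. The methods' t-test called 0 of the 9 at its own threshold in both of these steps.

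At P21 against P14, 0 genes of the 9 were higher and 3 were lower, where 0.956% of all genes were higher and 1.12% lower. Mmp13 was 14.6-fold lower (log2 change -3.87, CI -5.56 to -2.18, adjusted p = 0.0293), Mmp14 was 1.54-fold lower (adjusted p = 0.0217) and Timp1 was 2.11-fold lower (adjusted p = 0.0217). The P21 arrays lay below both P14 arrays for each of the 3, but the arrays of these stages did not overlap for any of the 9 genes. How often this held over all genes was not counted. None of these calls held without P14 replicate 1 (Mmp13 log2 change -2.94, a 7.67-fold difference, adjusted p = 0.266; Mmp14 adjusted p = 0.213; Timp1 adjusted p = 0.194) or without P21 replicate 2 (adjusted p = 0.0588, 0.0513 and 0.0584). Without P14 replicate 2, the Mmp13 difference was 27.9-fold. Without P21 replicate 1, Mmp13 (adjusted p = 0.1004) and Mmp14 (adjusted p = 0.0564) were lost, and without either P10 array Mmp13 was lost (adjusted p = 0.0508 each). All 3 calls were also lost with array weights and with the 4 arrays fitted alone, at the same log2 changes. With the Actb balance as a covariate, 0 of all genes passed, and the log2 changes were -3.49 for Mmp13, -0.40 for Mmp14 and -0.77 for Timp1.

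The other 15 probe sets of these genes gave no call in the opposite direction in any comparison. Over the 9 comparisons, 10 of 15 (P21 against P14) to 15 of 15 had the sign of their gene's main probe set, and 12 of 15 (P7 against P3) to 15 of 15 had the same call. At P21 against P0 these were 15 and 13, with no covariate. The other Mmp2 probe set was lower by a log2 change of -1.41, those of Mmp14 by -1.38 and -1.73, and those of Mmp16 by -3.14, -3.98 and -1.65. The other Timp4 probe set was higher by 1.24, where the main one gave 3.66. On that other probe set the P10, P14 and P21 arrays overlapped, at 6.78 to 6.92, 6.78 to 7.02 and 6.77 to 7.31. Both exceptions were in TIMPs that were not called: 1 of the 5 other Timp2 probe sets was lower (log2 change -1.03, adjusted p = 0.00485), as was 1 of the 3 other Timp3 probe sets (log2 change -0.97, adjusted p = 0.0101). At P7 against P3 both other Mmp14 probe sets were higher too (log2 change 0.80 and 0.87), while none of the 3 other Mmp16 probe sets passed. Mmp11, Mmp13 and Timp1 have a single probe set.

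**Figure D4:**
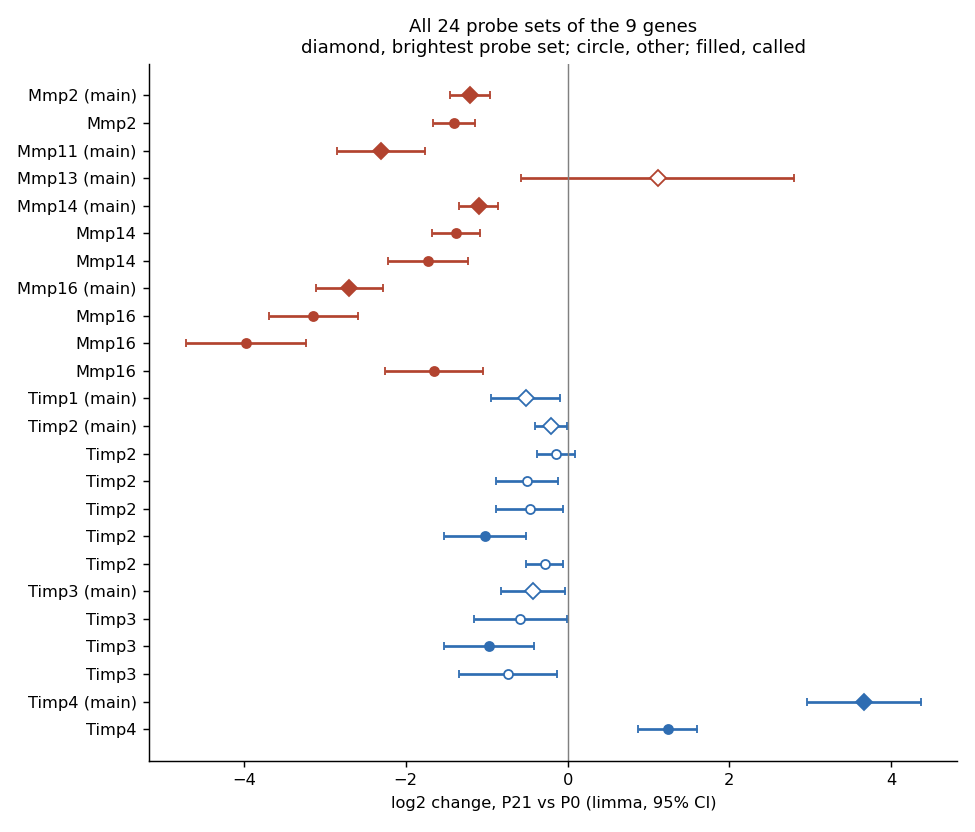
The log2 change at P21 against P0 with its 95% confidence interval (x axis) for all 24 probe sets of the 9 genes (y axis), with diamonds for the brightest probe set of a gene, circles for the others, and filled symbols for those called. All probe sets of Mmp2, Mmp14 and Mmp16 lie below 0 and are filled, both of Timp4 lie above 0 and are filled, and 1 of 6 for Timp2 and 1 of 4 for Timp3 are filled below 0.

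The genes with the most similar course were found by the root mean square difference of log2 values, centred on each gene's mean, over the 12 arrays. For Mmp13 these were Acp5, the acid phosphatase of osteoclasts (0.885, against a root mean square of 2.43 for Mmp13 about its own mean), Mmp9 (0.931) and Pmp2 (1.17). For Timp4 they were Mt1 (0.308), Fgl2 (0.317) and Mlc1 (0.327), against 1.25 for Timp4 itself. For Mmp16 they were Ccdc8 (0.128), Skp2 (0.155) and Ccnd1, cyclin D1 (0.158), against 1.01. Mmp2 lay nearest to Pdzrn3, Bmp1 and Abitram (0.0833 to 0.0897, against 0.393), Mmp11 to Plk2, Tgif1 and Lypd6 (0.207 to 0.209, against 0.824), and Mmp14 to Sh3pxd2b, Map4k5 and Mapk6 (0.139 to 0.141, against 0.446). Timp1 lay nearest to Npnt, Bambi and Ms4a7 (0.217 to 0.266, against 0.691). Timp2 lay nearest to Actg1, Zcchc8 and Pcbp1 (0.0436 to 0.0475, against 0.0944) and Timp3 to Sbno1, Col5a3 and Actb (0.0915 to 0.0996, against 0.243), both with little movement about their own mean. Among the 9 genes themselves, Mmp2 and Mmp14 were the closest pair of called genes (0.239), followed by Mmp11 and Mmp16 (0.416), and Mmp13 was at least 1.95 from every other gene.

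Other parts of the same proteolytic system were read from lists chosen for their roles. Their counts stand beside the shares of all genes given above, 15.3% higher and 16.9% lower at P21 against P0 and 11% higher and 13.5% lower at P10 against P0. Of 17 other MMPs, 13 were measured, and in most stages 5 of them lay in the lowest 25% of values. Mmp9, or gelatinase B, had log2 values of 6.98 and 6.34 at P0, 9.26 and 9.78 at P3, 10.70 and 11.56 at P7, 9.16 and 9.38 at P10, 9.93 and 8.18 at P14, and 6.70 and 6.82 at P21. As with Mmp13, its P7 arrays were the highest. The P21 arrays of Mmp9 lay between its P0 arrays, where those of Mmp13 lay above both P0 arrays with no call. Mmp9 was 6.11-fold higher at P10 than at P0 (adjusted p = 0.00264) and was the only one of the 13 called there, and it is also 1 of the 8 osteoclast markers. At P21 against P0, 1 of the 13 was higher, Mmp8 or neutrophil collagenase (2.90-fold, adjusted p = 0.0248), and 1 was lower, Mmp23 (1.62-fold, adjusted p = 0.00356). Neutrophil markers were higher at P21 too, with a summed signal of 12575 and 15275, against 1296 and 1914 at P0 and 5 of 7 called higher. Their part in the Mmp8 value was not tested.

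Of 13 activators and other inhibitors of proteolysis at the cell surface, 11 were measured. At P21 against P0, 1 was higher and 3 lower. A2m, which encodes a broad protease trap, was 3.66-fold higher (adjusted p = 1.53e-05). Pcsk5 and Pcsk6, proprotein convertases, were 2.28-fold and 2.06-fold lower, and Reck, a membrane-anchored MMP inhibitor, was 1.60-fold lower. At P10 against P0, A2m and Tfpi2, a serine protease inhibitor of the matrix, were 1.91-fold and 1.72-fold higher, and Pcsk6 and Pcsk5 were 2.35-fold and 1.64-fold lower.

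Of 18 measured ADAM and ADAMTS proteases, 4 were higher and 7 lower at P21 against P0. The largest falls were in Adamts12 (12.9-fold), Adamts9 (5.35-fold), Adamts20 (4.42-fold) and Adamts15 (3.69-fold). At P10 against P0 these 4 were already lower, by 2.14-fold to 5.6-fold. Of the 13 matrix substrates, 1 was higher and 9 lower at P21 against P0, with a median log2 change of -1.56. Vcan, versican of the immature matrix, was 14.0-fold lower, Tnc, tenascin C, 9.95-fold lower and Col5a1, a chain of type V collagen, 5.76-fold lower. Acan, aggrecan of cartilage and of perineuronal nets, was 6.13-fold higher (adjusted p = 4.09e-05). At P10 against P0, 1 of the 13 was higher and 6 were lower, Vcan by 8.11-fold and the basement membrane collagen Col4a2 by 2.39-fold. The summed signal of the 6 cartilage markers was 10692 and 10812 at P21, against 30215 and 30411 at P0, with 1 called higher and 4 lower. That of the 7 fibroblast markers was 48386 and 48642 at P21, against 65216 and 68684 at P0, with 0 called higher and 3 lower. The sum of the 6 sensory epithelium and tectorial membrane markers was 1453 and 1362 at P21 and 1266 and 1466 at P10, against 11043 and 12474 at P0. At P21 against P0, 1 of the 6 was called higher and 3 lower, and at P10 0 higher and 4 lower. Tecta was the brightest of them at P0, with a mean log2 value of 13.13, followed by Otog at 10.8. The sum of the 8 endothelial markers was 3735 and 4518 at P21, against 7047 and 6493 at P0, with 4 of 8 called lower. The part of these cells in the lower values of Mmp2, Mmp11, Mmp14, Mmp16 and the substrates was not tested. The limit on P21 from the RNA balance holds for these lists too.

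**Figure D5:**
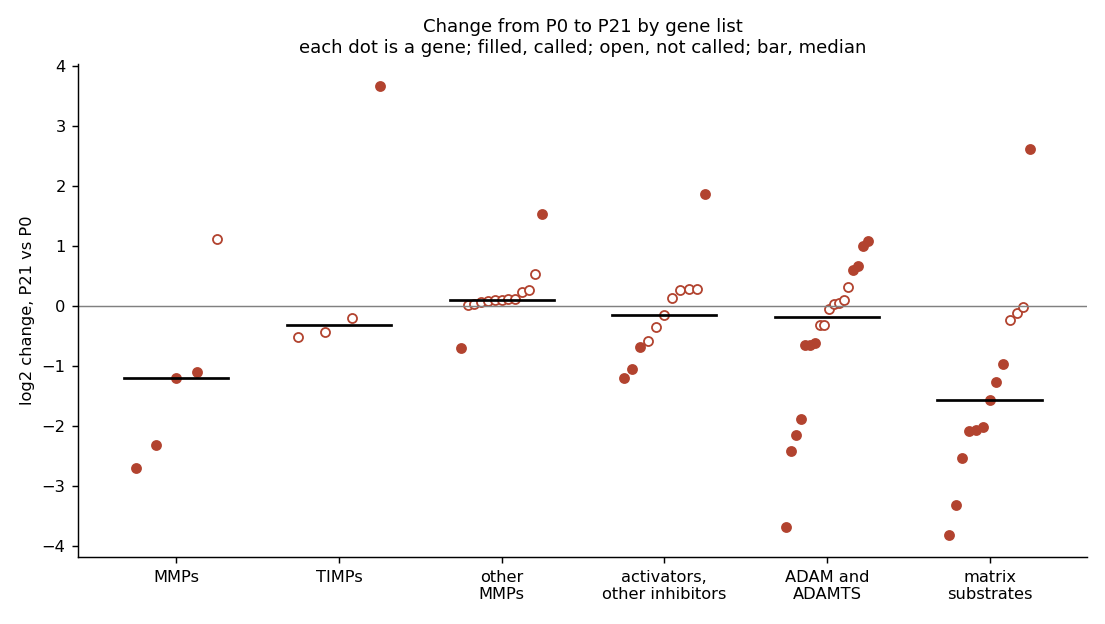
The log2 change at P21 against P0 (y axis) of each gene in the measured MMPs and TIMPs of the set and in the 4 further lists (x axis), with filled dots for called genes, open dots for the others and bars at the medians. The MMPs of the set and the matrix substrates have medians of -1.21 and -1.56, and the other MMPs have a median of 0.10.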

How the data were processed

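RNA of dissected auditory nerve was hybridised to Affymetrix 3' expression arrays, 2 mice at each of 6 stages. Per the labels and the study's methods, scans were read into Affymetrix Expression Console and summarised by RMA and by MAS5, whose versions are not given in the sources used here. The deposited log2 values are those of RMA, which subtracts background, quantile normalizes the arrays and combines the probes of a set. Quantile normalization sets signals relative to the whole array, and no detection calls were used. The table held 0 columns of other samples and no comparisons by the authors. Gene names came from GEO's platform annotation: of 45101 probe sets, 64 controls were left out, and of the rest 34945 have 1 symbol, 932 several and 9160 none.

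Stages, taken from the labels, were compared with lmFit and eBayes (limma 3.58.1, R 4.3.3). The fit used all 12 arrays in 6 groups, with 6 residual degrees of freedom and Benjamini-Hochberg adjustment over 45037 probe sets. Intervals are 95% intervals of that fit. The script was tested on simulated data with 200 changed probe sets. A value counted as low where it lay in the lowest 25% of its array, a bound between 5.06 and 5.18. All 10 genes are named. Of each further list, the up to 4 called genes with the largest fold at P10 and at P21 against P0 are named, and for each member the 3 genes of most similar course. The members and lists were chosen with earlier results of these data known. Alternatives were the replicate block, an intensity trend, array weights, fits of 4 arrays, shifted medians, no dim probe sets, the mean of a gene's probe sets, the Actb covariate, the methods' t-test (unpaired Student's, at an unadjusted p of 0.05 and a fold of 1.5) and leaving out each array. With 2 arrays a stage, no exact permutation test between 2 stages can reach 0.05. Arrays have no read depth, and their number limits the precision.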

Additional observations from a re-analysis of the deposited data

How the results depend on the processing

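Across 22 alternative settings, 12 of which left out 1 array, 1953 values of the 9 genes were compared with those reported: 1853 kept their direction and their side of the threshold, 68 lost the call, 11 gained one, and 21 values that were not called changed sign. No called change turned round in any of them. The number of genes called ran with 1 array left out from 0 to 2 for P3 against P0, 4 throughout for P7, 4 to 6 for P10, 5 to 6 for P14 and 5 to 6 for P21 against P0, 2 to 4 for P7 against P3, 0 to 3 for P21 against P14, and 7 to 8 in the F-test over 6 stages. It was 0 at P10 against P7 and at P14 against P10 each time.

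With only the 4 arrays of a comparison, 0 genes were called at P3 against P0 and 0 at P21 against P14. Array weights gave 0 at P21 against P14. The Actb 3' to 5' balance as a covariate gave 0 at P21 against P0 and 0 at P21 against P14. The methods' t-test, unadjusted, gave 0 at P3 against P0 and 1 at P21 against P14. After Benjamini-Hochberg it gave 0 at P3, P7, P10, P14 and P21 against P0, 0 at P7 against P3 and 0 at P21 against P14. Its spread comes from 4 arrays, and at P14 against P10 it gave 0 before and after adjustment. The cause of these losses was not tested beyond that construction.

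The labels number the replicates of each stage, but nothing ties a number to a litter or a day. Over 15 pairs of stages, same-numbered arrays deviated from their stage means with correlations between -0.125 and 0.317, of which 6 were over 0.1. With no reference for such correlations, these values cannot tell whether same-numbered arrays share a litter or a day. With the replicate number as a block, the fit called the same number of the 9 genes in every comparison (5 at P21 against P0), and over all genes it called 1 higher and 1 lower at P14 against P10, where 0 had passed. Shifting all arrays to 1 median changed the calls over all genes at P10 against P0 to 1786 higher and 2841 lower, against 1997 and 2450, and no call among the 9 genes.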
